A study of Danio rerio with 6 samples.

Results

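A set of 106 transcripts fell in level from juvenile to adult male to adult female zebrafish, among 13927 transcripts of the whole-body RNA sequencing table. The members were chosen by their group means of normalised counts. The mean over the 6 fish had to be 100 or more, the juvenile mean had to be 2 to 10 times the male mean, and the male mean had to be at least 3 times the female mean. Of the transcripts in the table, 9528 reached a mean of 100. The fish were 2 adult males, 2 adult females and 2 juveniles of 28 days, and each library held the RNA of 1 whole fish. All were untreated and had been euthanised with Tricaine by their breeder. Strain, the age of the adults and the sex of the juveniles are not given in the labels. The paper assumes from its expression patterns that both juveniles were male. The table numbers the juveniles 2 and 3, and these numbers are kept. All 3 steps of the order were used to choose the members, so the levels and ratios below are given as a description with no test. With 2 fish in each group, a two-sided exact permutation test cannot reach a p below 0.333.

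In whole-body RNA the transcripts of every organ are read together, from muscle, skin and skeleton to gut, brain and gonad. At 28 days zebrafish are still growing and changing from larval to adult form, and their gonads are turning into testes or ovaries. Laboratory strains of zebrafish have no clear sex chromosome, and sex in the adult is read from the gonad and the body shape. In such bulk samples fewer cells of a type and less RNA per cell cannot be told apart.

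A transcript here is a model assembled from the reads, with the number of its assembled locus and its own number within that locus. The files pair no gene name with these numbers, and 0 of them were found in the reference names used here, so the members are described by their levels and their loci. No identifier is given a gene's role. The 106 members lay at 101 loci. The table itself holds transcripts that differ between juveniles and females in a comparison by the authors, and transcripts outside that selection were not analysed here. A normalised count is a read count divided by a size factor of the fish. The reads recovered in the table ranged from 13980849 to 18635087 per fish, which is part of each library, and 1 read was worth 0.799 to 1.41 normalised counts.

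Most members were weak transcripts, and 86 members had a mean of 100 to 500. Their mean over the 6 fish ranged from 102 to 21263 normalised counts with a median of 186. A mean under 200 was found for 54 members, a mean of 200 to 500 for 32, and a mean of at least 1000 for 15. The median member had 378 normalised counts in juvenile 2 and 437 in juvenile 3. In male 1 and male 2 it had 105 and 138, and in female 1 and female 2 it had 34.8 and 29.6. Together the members took 1.12% and 1.14% of the recovered reads in the juveniles. Of the male reads they took 0.417% and 0.455%, and of the female reads 0.0802% and 0.0531%. The 4 most abundant members held 46.4% to 55.4% of the members' reads in each fish.

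**Figure D1:**
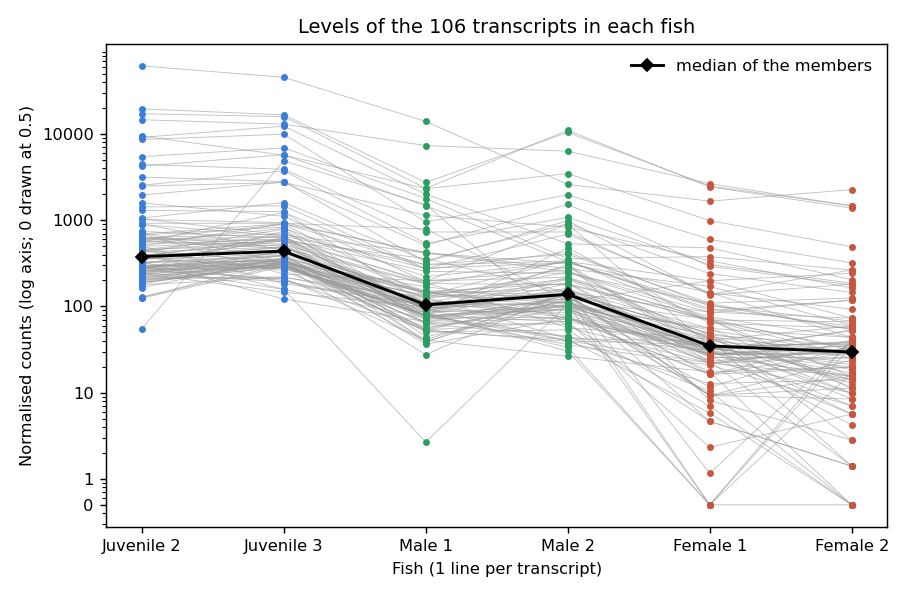
Normalised counts (log axis, with 0 drawn at 0.5) of the 106 transcripts in each of the 6 fish, with 1 grey line per transcript, points coloured by group and black diamonds for the median. The medians were 378 and 437 in the juveniles, 105 and 138 in the males, and 34.8 and 29.6 in the females, and single lines cross this order.

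Both steps were mostly small. The juvenile to male ratio had a median of 2.87 and was under 3 for 55 members, from 3 to 5 for 26 and over 5 for 25. The male to female ratio had a median of 3.65, with females at 0 set to a floor of 3 reads over both fish. It was under 4 for 65 members, while 12 members reached 10 or more, counting 1 with no female reads. Both ratios were low, under 3 and under 4, in 38 members. Both were at least 5 in 10 members. Over all 9528 transcripts with a mean of 100 or more, the median juvenile to male ratio was 1.01 and the median male to female ratio was 0.692.

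**Figure D2:**
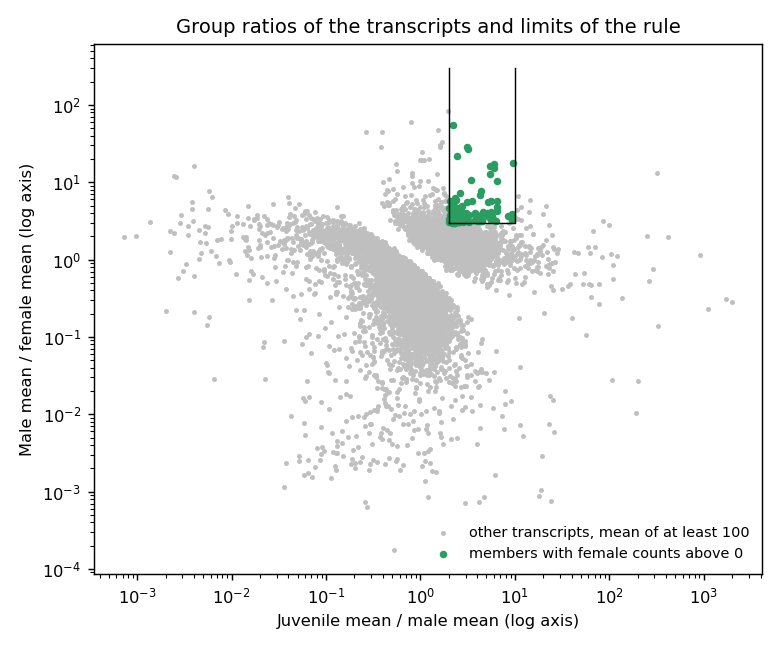
Ratio of the juvenile to the male mean against the ratio of the male to the female mean (both log axes) for transcripts with a mean of at least 100, with the limits of the rule as black lines. The members (green) lie mostly at the low corner of the limits, with medians of 2.87 and 3.65, and the member with no female reads cannot be drawn.

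Many transcripts lay close to a limit of the rule. Within 10% of the male to female limit there were 29 members above it and 30 transcripts below it that met the other limits. The member nearest to this limit had a ratio of 3.01, and the nearest transcript outside had 2.99. For the lower juvenile to male limit these values were 2.01 and 1.97, and for the upper limit 9.64 and 10.02. The member with the lowest mean had 102 normalised counts, and the nearest transcript outside had 97.5. A further 592 transcripts met both ratios with a mean under 100.

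The rule uses means, so single fish could go against it. In 100 of 106 members both males were above both females, beside 34.6% of all transcripts with a mean of at least 100. In 102 members both juveniles were above both males, beside 37.5%. Both juveniles were above both females in 106 of 106 members, beside 37.6%. The full order without overlap at either step held in 96 members, beside 20.7% of transcripts. These shares rest on the contrasts that chose the members, and nothing is read from them. The steps were narrower when fish were taken singly. The lower male was at least 3 times the higher female in 20 members, and the lower juvenile was at least 2 times the higher male in 55. Every combination of 1 juvenile, 1 male and 1 female met the rule in 11 members. These counts rest on the same contrasts and are descriptions only. No shares over all transcripts were set beside them.

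The most abundant member was MSTRG.1739.1. It had 61598 normalised counts in juvenile 2 and 45476 in juvenile 3. Male 1 had 13978 and male 2 had 2598. Female 1 had 1664 and female 2 had 2266. Male 1 stood far above male 2, and male 2 lay just above the females. The group means were 53537 ± 11399.8 in juveniles, 8288 ± 8047 in males and 1965 ± 426 in females (SD, n = 2), so the SD of the males was nearly as large as their mean. Its juvenile to male ratio was 6.46 and its male to female ratio 4.22.

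MSTRG.8273.1, the next in abundance, showed the males the other way round. The juveniles had 19565 and 16686 normalised counts, male 1 had 2750.1 and male 2 had 10442, and the females had 2493 and 1469.9. Here male 1 was close to female 1 and male 2 was nearer to the juveniles. The third member in abundance ran almost in parallel, although it belongs to another locus. Its juveniles had 17179 and 15902, its males 2343 and 11029.9, and its females 2439 and 1381. After each transcript was centred on its own mean log2 level (normalised count + 1), the pair differed by at most 0.17 on the log2 scale in any of the 6 fish. Some other pairs of members at different loci were closer, the closest with at most 0.13.

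The fourth member had the least contrast of the first 10 at its upper step. Its juveniles had 14635 and 13005 normalised counts, its males 7347 and 6319, and its females 2654 and 1467. Both males agreed within 1.16-fold, and the juvenile to male ratio was 2.02. The fifth had 9138 and 12331 in juveniles, 2002 and 534 in males, and 477 and 204 in females. In it male 1 was 3.75 times male 2, and male 2 was close to female 1. The sixth had 8636 and 9943 in juveniles, 953 and 1974 in males, and 599 and 319.9 in females, with male 2 being the higher male. The seventh had 9456 and 5687 in juveniles, 2328 and 3468 in males, and 990.3 and 493 in females, so no group overlapped with another.

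The eighth and ninth members lie at consecutive locus numbers and shared the same pattern. The eighth had 5465 and 6913 normalised counts in juveniles, 1786 and 359.6 in males, and 378 and 264 in females. The ninth had 4240.3 and 5754 in juveniles, 1470.2 and 332 in males, and 199 and 242 in females. Male 1 was 4.97 and 4.43 times male 2. In the eighth male 2 lay between the females, and in the ninth it was just above both. The tenth had the most even males, with 730.2 and 730.4, beside 4433 and 3904 in juveniles and 138 and 265 in females. Of the 10 most abundant members, 4 were at least 2-fold higher in male 1, 3 were at least 2-fold higher in male 2, and 3 had males within 2-fold. The juveniles were within 2-fold in 10 of these 10.

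Female levels rested on few reads for many members. In 71 members both females had under 50 reads, and 17 members had at most 3 reads in at least 1 female. At 0 reads in 1 or both females were 8 members. A floor of 3 reads over both females is 1.91 normalised counts. Values near it carry a large counting error, and such floors and intervals cover counting error only, since reads of amplified libraries are not independent molecules.

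One member had no read in either female. It had 385 and 171 reads in the juveniles, or 407 and 158 normalised counts. Male 1 had 3 reads and male 2 had 133, or 2.67 and 106 normalised counts. Against the floor of 3 reads over both females, the male mean was at least 28.5-fold higher. This mean comes almost wholly from male 2, which was 39.8 times male 1.

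The largest measured male to female ratio was 54.7. This member had 625 and 692 normalised counts in the juveniles, 277 and 321 in the males, and 8.13 and 2.82 in the females, the last from 7 and 2 reads. All groups were apart, and the males agreed within 1.16-fold. A weaker member with a ratio of 26.8 had 198 and 317 in juveniles, 39.1 and 123 in males, and 4.64 and 1.41 in females, from 4 and 1 reads. A stronger one with a ratio of 21.8 had 1590.5 and 1113 in juveniles, 194 and 905 in males, and 34.8 and 15.5 in females, where male 2 reached nearly the level of juvenile 3. Of the 12 members with a male to female ratio of at least 10, 5 belonged to a single locus, described below.

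MSTRG.37724.1 had the widest overlap between juveniles and males of the 106 members. It had 55.0 normalised counts in juvenile 2 and 4886 in juvenile 3, an 88.8-fold difference. Male 1 had 1518 and male 2 had 57.5, while the females had 22.1 and 32.4. Thus 1 juvenile and 1 male held nearly all of its reads, and juvenile 2 was at the level of male 2. Its group means of 2471 ± 3416 in juveniles, 788 ± 1033 in males and 27.2 ± 7.32 in females (SD, n = 2) met the rule, but the SD was larger than the mean in juveniles and males. The other 3 members whose juveniles and males overlapped did so narrowly. In the first of these, the higher male had 262 and the lower juvenile 237 normalised counts. In the second they had 306 and 268, and in the third 124 and 122.

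In 6 members the lower male was below the higher female. The clearest had 793 normalised counts in male 1 and 115 in male 2, with females at 199 and 73.3. Its juveniles had 923 and 922. Male 1 was thus close to the juveniles and male 2 lay between the females. Another had 27.6 in male 1 and 148 in male 2, beside 29.0 and 14.1 in the females. The remaining 4 include the third and eighth most abundant members.

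The rule takes means and sets no limit on differences between the 2 fish of a group. It is not independent of them, since 1 high male can carry a male mean over the limit. The differences were wider in the members than in the table. The males differed 2-fold or more in 40 of 106 members (37.7%), beside 11.6% of all transcripts with a mean of at least 100. The females did so in 45 members (42.5%) beside 8.89%, and the juveniles in 14 (13.2%) beside 7.71%. Weak transcripts were more frequent among the members, with a mean of 100 to 500 in 86 of 106 and in 4426 of 9528 transcripts. Within that range the share was 27.9% for males beside 15.2% of all transcripts, 46.5% for females beside 14.5%, and 15.1% for juveniles beside 11.7%. The part of read depth in these spreads was not tested. Wide spreads were also found in the other transcripts with a male to female ratio of at least 3. Counts of this ratio, here and below, take in transcripts with no reads in any adult. The males differed 2-fold or more in 30.8% of the 221 with a juvenile to male ratio of 0.5 to 2, in 46.8% of the 79 under 0.5 and in 15 of the 25 over 10. The females did so in 22.6%, in 26.6% and in 10 of 25. Of these 25, only 16 had reads in both males and 11 in both females. A fish with reads beside a fish with 0 was counted as a 2-fold difference. A wide spread between males was thus found outside the members as well. The 95% exact binomial interval of the reads left out an equal level in 76 members (71.7%) for the males, 84 (79.2%) for the juveniles and 57 (53.8%) for the females. Over all transcripts with a mean of at least 100 these shares were 63.4%, 57.8% and 63.0%. With a mean of 100 to 500 they were 66.3% of members beside 54.9% of all transcripts for the males. For the juveniles they were 77.9% beside 52.9%, and for the females 45.3% beside 52.7%. Such an interval is wide where reads are few, as in the females, so a lower share there does not mean closer levels. These intervals compare 2 libraries and not conditions.

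The direction within pairs was uneven as well. Juvenile 3 was the higher juvenile in 72 of 106 members (67.9%), beside 49.9% of all transcripts with a mean of at least 100, with a median log2 ratio of juvenile 2 to juvenile 3 of -0.21, beside -0.0016 over all. Male 2 was the higher male in 65 members (61.3%) beside 4764 of 9528 transcripts, with a median log2 ratio of male 1 to male 2 of -0.24 beside -0.0022. Female 1 was the higher female in 67 members (63.2%) beside 45.9%. The median log2 ratio of female 1 to female 2 was 0.62 over the 98 members with reads in both, and -0.035 over all transcripts. Among transcripts with a mean of 100 to 500 the gaps were smaller. Juvenile 3 was higher in 72.1% of these members beside 54.9% of all such transcripts. Male 2 was higher in 61.6% beside 52.0%, and female 1 in 61.6% beside 51.6%. The median log2 ratio of the females was 0.55 in these members beside 0.024. The other 3 classes with a male to female ratio of at least 3 were set beside the members. With a juvenile to male ratio of 0.5 to 2 the medians were 0.036 for the juveniles, -0.35 for the males and 0.33 for the females. Under 0.5 they were 0.19, -0.33 and -0.070, and over 10 they were -0.38, -0.27 and 0.51. The last class holds 25 transcripts, and its medians rest on the 16 with reads in both males and the 11 with reads in both females. The median ratio of the males was on the side of male 2 in all 4 classes. That of the juveniles was on the side of juvenile 3 in the members and in the class over 10, and that of the females was on the side of female 2 in the class under 0.5. Differences between the classes were not tested.

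**Figure D3:**
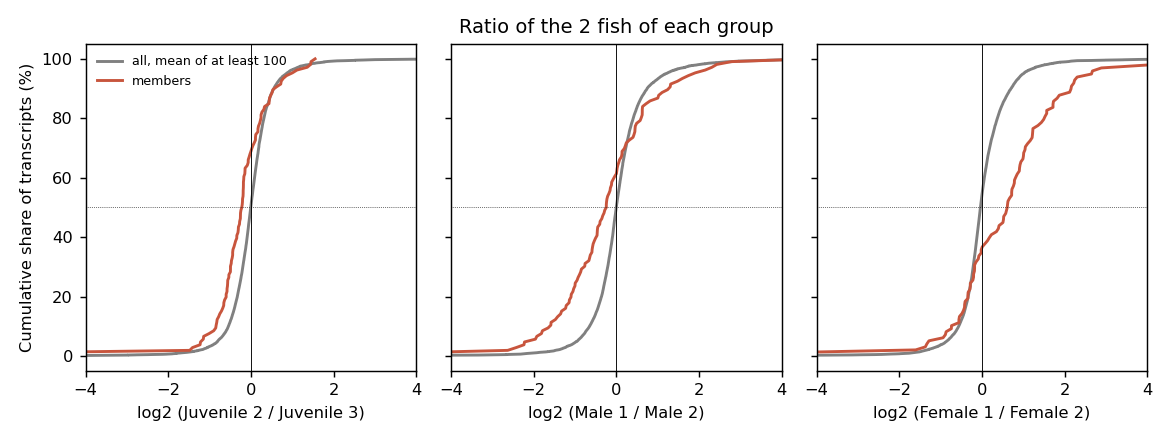
Cumulative share of transcripts (%) against the log2 ratio of the 2 fish of each group, for the members (red) and for all transcripts with a mean of at least 100 (grey), over transcripts with reads in both fish. The members' medians were -0.21 for the juveniles, -0.24 for the males and 0.62 for the females. Their curves are wider than the grey ones in the juveniles, males and females.

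The members fall into 3 sets by how the males compare. In 15 members male 1 was at least 2-fold higher, with a median of 3.02-fold. In 25 members male 2 was at least 2-fold higher, with a median of 2.78-fold. The other 66 had males within 2-fold, with a median of 1.35-fold. Where male 1 was higher, the lower male was under 2 times the female mean in 9 of 15 members. Where male 2 was higher, this held in 8 of 25. With males within 2-fold the male to female limit of the rule leaves no room for it, so 0 of 66 was fixed beforehand. The higher male was within 2-fold of the juvenile mean in 5 of 15, 11 of 25 and 13 of 66. With male 1 alone 98 transcripts met the rule, 59 of them members, and with male 2 alone also 98, 61 of them members. The minimum mean was then taken over the remaining fish, so the limit on abundance moved as well. The log2 ratios of the males and of the females had a Pearson r of 0.045 and a Spearman rho of 0.061 over the 98 members with reads in every fish. For the males and the juveniles r was -0.34 and rho was -0.043. Over all 9341 transcripts with a mean of at least 100 and reads in every fish, this r was 0.035 and rho 0.042. The members include MSTRG.37724.1, 88.8-fold higher in juvenile 3 and 26.4-fold higher in male 1, and r without it was not computed. These are correlations across transcripts of the same libraries, which are not independent replicates.

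**Figure D4:**
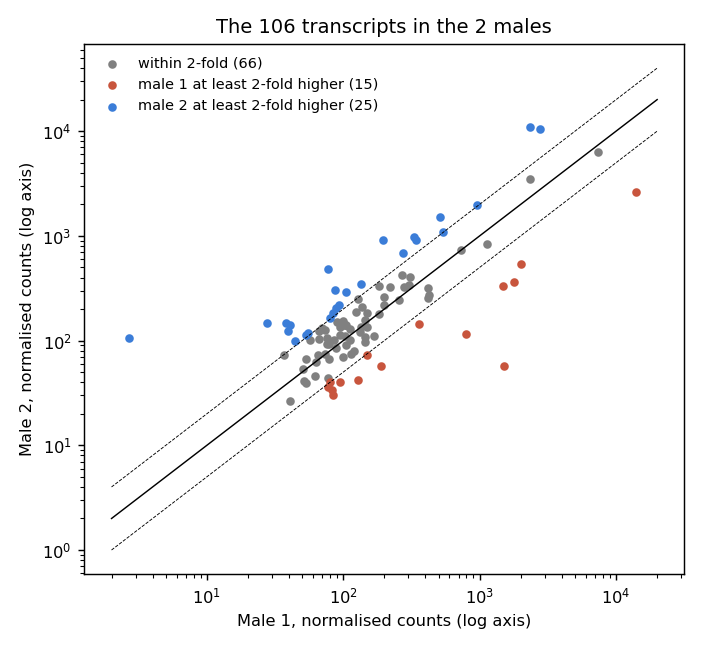
Normalised counts of the 106 transcripts in male 1 and male 2 (both log axes), with the line of equal level and dashed lines at 2-fold. The 15 transcripts at least 2-fold higher in male 1 and the 25 at least 2-fold higher in male 2 lie on either side of the 66 within 2-fold.

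Some members share a locus or lie at neighbouring locus numbers. A locus number is given by the assembly, and its position in the genome was not analysed here. At a locus with another transcript of the table were 11 members (10.4%), beside 3.64% of all transcripts with a mean of at least 100. Of these 11 members, 5 came from 1 locus, so the share does not count separate loci. Transcripts of a locus can share exons, and reads from shared exons cannot be told apart, so they are not independent measurements.

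The locus with most members held 5 of them, together with a sixth transcript that was too weak to be a member. Its strongest transcript, MSTRG.10073.1, had 608 and 637 normalised counts in juveniles, 95.2 and 135 in males, and 9.29 and 8.46 in females. The last came from 8 and 6 reads. The groups were far apart, with the lower juvenile at 4.51 times the higher male and the lower male at 10.2 times the higher female. The means were 623 ± 19.96 in juveniles, 115 ± 28.2 in males and 8.87 ± 0.588 in females (SD, n = 2). The SD of the females rests on these few reads and says little about the spread between females. The other 4 members of the locus had juvenile to male ratios from 5.48 to 6.50 and male to female ratios from 10.3 to 17.2. Their females had 0 to 9 reads. The sixth transcript had 38 and 52 reads in juveniles, 6 and 12 in males and 0 in both females, so its juvenile to male ratio of 5.92 was like theirs. These 5 members were also among the 12 whose lower male was at least 3 times the higher female while the lower juvenile was at least 2 times the higher male.

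At some other loci the transcripts differed. One locus had 2 members, with juvenile to male ratios of 3.44 and 6.45, and a further transcript that was lower in juveniles than in males. That transcript had 544 and 442 normalised counts in juveniles, 521 and 915 in males, and 115 and 200.1 in females. At a locus with 1 strong member, the member had 3165 and 2811 in juveniles, 328 and 984 in males, and 136 and 182 in females. The other transcript of this locus had 2070 and 2032 in juveniles, 360.2 and 341 in males, and 194 and 345 in females, so that males and females overlapped in it. Its male to female ratio was 1.30, beside 4.13 for the member.

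Another member at the next locus number was found for 4 members (3.77%), beside 0.724% of all transcripts with a mean of at least 100. These 4 members lie next to one another in pairs, so each pair was counted from both sides. Of 65 transcripts outside the set that lay at a locus number next to a member and had a mean of at least 100, 44 (67.7%) fell in order from juvenile to male to female mean, beside 31.5% of all. A male mean at least 3 times the female mean was found in 8 (12.3%) beside 4.52%, and a juvenile mean at least 2 times the male mean in 32 (49.2%) beside 20.6%. These shares were not set beside the neighbours of other transcripts with a like order. All transcripts with a male to female ratio of at least 3 formed 27 runs of consecutive locus numbers, and 7 of these runs contained a member. These 7 runs held 9 members and 11 other transcripts, and they were picked out after their values were seen. In a run were thus 9 of 106 members (8.49%), beside 63 (14.6%) of the 431 transcripts of this class, which includes the members. The share in a run was therefore no higher for the members than for their class.

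The member of the run of 5 loci had 622 and 525 normalised counts in juveniles, 77.4 and 479 in males, and 63.9 and 56.4 in females. In all 5 transcripts male 2 was well above male 1, by 3.63 to 6.76 times, and juvenile 2 was above juvenile 3. Their male to female ratios were 4.63 to 10.5 and their juvenile to male ratios 1.19 to 2.06, so 4 of the 5 lay outside the rule by that ratio alone. In a run of 3 loci the females had hardly any reads. Their reads were 4 and 0, 7 and 2, and 11 and 8, while the males had 212 to 402 reads and differed by at most 1.16-fold. The member of this run is the one with the male to female ratio of 54.7. One of its neighbours had a ratio of 83.8 and missed the rule with a juvenile to male ratio of 1.97.

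The member without female reads belonged to another run of 3 loci. In its neighbour, also a member, the males had 40.9 and 141 normalised counts and the females 48.8 and 2.82. In the third transcript of the run the males had 54.3 and 686. Male 2 was higher in all 3 of them, by 39.8, 3.46 and 12.7 times. By contrast, the run with the eighth and ninth most abundant members was higher in male 1. The first run, with male 2 being 1.12 to 2.00 times male 1, differed in its juveniles. Its member had a juvenile to male ratio of 3.87, and its neighbours had 0.805 and 0.681.

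**Figure D5:**
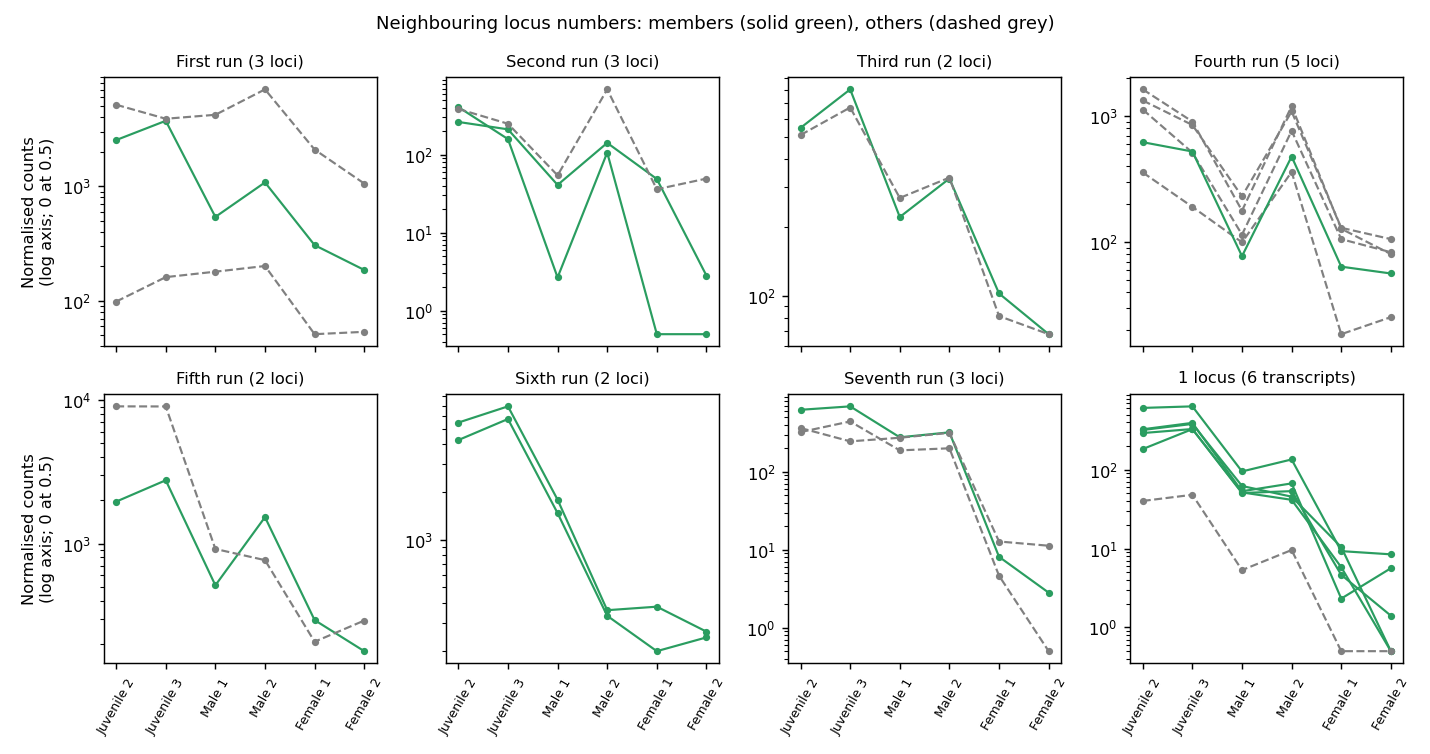
Normalised counts (log axis, with 0 drawn at 0.5) in each fish for the 7 runs of consecutive locus numbers that contain a member and for the locus with 5 members, with members in solid green and other transcripts in dashed grey. In the fourth run all 5 lines are 3.63 to 6.76 times higher in male 2 than in male 1, and in the seventh run all females are at 11 reads or under.

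The direction of fish differences was also compared between neighbouring locus numbers in general. Over 66 pairs of a member and a transcript of the next locus number, the males differed in the same direction in 40 pairs (60.6%), beside 57.0% of 3369 such pairs in the table. For the juveniles this was 43 pairs (65.2%) beside 55.2%. These shares are descriptions, since all pairs come from the same fish.

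A male mean at least 3 times the female mean was found for 431 transcripts with a mean of at least 100, counting those with no adult reads. Of these, 221 had juvenile and male means within 2-fold, 106 (24.6%) were the members, 79 were lower in juveniles by more than 2-fold, and 25 had juveniles over 10 times the males. Among these 25, male 1 was higher in 8 and male 2 in 12, and the rest had no reads in any adult. Of the 1804 transcripts with such a mean and with juveniles 2 to 10 times above males, 1048 had a male mean 1 to 2 times the female mean, 335 a mean 2 to 3 times as high, while the male mean was under the female mean in 315. The 106 members were 5.88% of them.

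Which transcripts belong to the set depended on the size factors and on single fish. Without female 1 the rule was met by 270 transcripts, 95 of them members, and without female 2 by 115, 64 of them members. In these counts the minimum mean was taken over the remaining fish. When the size factors were estimated again on the table, males rose by 0.59 to 1.01 relative to females on the log2 scale and the rule was met by 375 to 993 transcripts.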

How the data were processed

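Whole-body RNA of 2 adult males, 2 adult females and 2 juveniles was sequenced. Per the labels and the methods, the authors mapped reads to GRCz11 with HISAT2 2.1.0 and assembled transcripts with StringTie 1.3.4. They counted with featureCounts 1.6.3 and normalised with DESeq2 (Galaxy version 2.11.40.2). Each deposited signal value is thus a count scaled by the size factor of its fish, which came from the median of ratios. Columns with the authors' own fold changes, errors and p-values were not used. Reads were recovered from the value of 1 read in each fish, and 100% of values were whole within 0.01 of a read.

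Members were found on arithmetic means in Python 3.11.15. Tables were read with pandas 2.3.3, values computed with numpy 2.4.6, intervals taken from scipy 1.17.1 and figures drawn with matplotlib 3.10.9. The rule was tested on simulated data with planted ratios inside its limits and counting noise only. That check says nothing about members near a limit or about differences between fish of a group. No test between groups was run, because the members were chosen on every contrast. Members and comparisons were chosen with earlier results of these data known. The 4 identifiers printed are the 2 members with the highest mean and the 2 with the largest product of both ratios among those with at least 3 reads in each female. Other members are given by rank or value. Nothing says whether fish shared a tank or parents. No gene lists or tissue markers were used, since the table holds no names. Alternatives were other scalings, limits and means, and leaving out each fish.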

Additional observations from a re-analysis of the deposited data

How the results depend on the processing

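The number of transcripts that met the rule moved with most choices. With all 6 fish and the authors' size factors it was 106. New median-of-ratios size factors gave 531, scaling by table totals gave 375 and upper-quartile scaling gave 993, which included 105, 55 and 97 of the members. The median of ratios rests on a majority of unchanged transcripts. Scaling by totals or upper quartiles rests on these being alike between fish. Every transcript here was picked for a difference between juveniles and females. The count was 178 and 52 with a minimum mean of 50 and 200, 441 and 41 with a male to female limit of 2 and 4, and 164 and 51 with a lower juvenile to male limit of 1.5 and 3. It was 11 where every combination of fish had to meet the rule. With geometric means it was 112, with 89 of the members, and with no upper limit it was 126. Leaving out 1 fish, with the minimum mean taken over the remaining fish, gave 80 to 270, the highest without female 1.

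The median juvenile to male ratio of the members was 2.05 with scaling to the total, beside 2.87, and 2.86 to 3.47 when 1 fish was left out. The median male to female ratio was 5.49 with the median of ratios, 6.37 with the total and 7.39 with upper-quartile scaling, beside 3.65, and 3.35 to 4.68 when 1 fish was left out. The full order without overlap held in 85 to 102 members under the 3 scalings. No share over all transcripts was taken under these scalings, and this order chose the members, so nothing is read from these counts. The medians of the fish ratios within groups kept their sign under all scalings and with 10 added to each value. No paired analysis was possible because the results come from no test, and the sources used here link no fish of one group to a fish of another. Depth limits the female values most, since 71 members had under 50 reads in both females.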
